A study of Mus musculus with 36 samples.

Results

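The 10 genes described here encode subunits of the chaperonin TRiC (Tcp1, Cct2, Cct3, Cct4, Cct5, Cct7 and Cct8) and the cytosolic heat shock proteins Hspa8, Hsp90aa1 and Hsp90ab1. They were chosen by gene symbol from a table of 12762 genes, and each symbol matched exactly 1 row. In the Ikaros line 6 of the 7 TRiC subunits and Hsp90aa1 were lower than in the control line from 12 h on, whereas Cct2 and Hsp90ab1 did not pass the test at those times. Hspa8 followed another course, with a dip at 2 and 6 h in both lines against 0 h cultures that were grown separately. In control cells the calls of this dip were lost when any 1 replicate was left out.

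TRiC, also called CCT, is a double-ring ATP-driven chamber that encloses newly made actin, tubulin and many WD40-repeat proteins while they fold, and each ring is assembled from one copy of every different subunit. Hspa8 (Hsc70) is the constitutively made Hsp70 of the cytosol, which binds nascent chains and hands clients on to TRiC and Hsp90 with the help of J-domain proteins. Hsp90aa1 and Hsp90ab1 encode the alpha and beta forms of cytosolic Hsp90, which completes the folding of kinases and steroid receptors. The hormone-binding domain of the estrogen receptor is a classical Hsp90 client, and a form of it, ERt2, is expressed in both lines of this study.

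The data are 36 mRNA-seq libraries of B3, a mouse cell line at the pre-B stage that models a dividing B cell progenitor. The Ikaros line carried an MSCV retroviral vector for HA-tagged Ikaros fused to ERt2 with IRES and GFP, and the control line carried the vector with ERt2, IRES and GFP alone. Both lines were GFP-sorted pools rather than single clones, and expression was driven from integrated virus. Each was collected at 0, 2, 6, 12, 18 and 24 h with n = 3 libraries per group. The labels list 4-OHT (4-hydroxy-tamoxifen) at 0.5 uM for every library, 0 h included, while the methods describe the 0 h cultures as drug-free and grown separately. Replicates came from culture batches 1, 2 and 4 at 0 h and batches 1, 3 and 4 later, and values are listed below in that order.

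Values are log2 expression after the authors' correction for GC content, gene length and library preparation, on a scale set by the whole table, so a level is read across libraries for 1 gene and not between genes. The depth of a library cannot be read from these values, the target in the methods was not used here, and precision rests on the 3 libraries per group. Library medians lay between 11.70 and 11.73. Ikzf1, which encodes Ikaros, was 6.10 ± 0.183 (SE) log2 units higher in the Ikaros line at 24 h, and 5.19 ± 0.183 higher already at 0 h. The vector is transcribed with or without the drug. All 8 B lineage markers looked for had a row, and Cd79a lay between 17.79 and 18.70. Of 5 myeloid markers 2 had a row, and both ranged low, Itgam between 3.66 and 9.99 and Lyz2 between 3.91 and 9.86. Of 4 erythroid markers 2 had a row, Klf1 between 6.07 and 8.60 and Epor between 5.10 and 7.35. At 24 h 5 B lineage markers were called higher and 2 lower in the Ikaros line, Itgam differed by 4.24 and Lyz2 by -2.94, and their part in the results was not tested. For the 5 T cell and 4 fibroblast markers the number with a row was 0. These are bulk samples, in which fewer cells that express a gene and less RNA per cell cannot be told apart. By the methods each culture batch was a repeat of the time course made as a biological replicate. The p-values measure the spread between the 3 libraries within a group, pooled over all 12 groups and not taken from the compared groups alone.

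The members lie on 9 chromosomes, and Tcp1 and Hsp90ab1 share chromosome 17. In GENCODE on GRCm38 the Cct3 gene spans chr3:88297116-88321767 on the plus strand, Cct2 spans chr10:117051001-117063814 on the minus strand, and Hsp90aa1 spans chr12:110690605-110702728 on the minus strand. Exons of Tcp1, Cct7 and Cct8 overlap exons of genes on the opposite strand, namely Mrpl18 and Acat3, Pradc1, and Usp16. The kit marked the strand, but the strand setting of the counting was not given in the sources used here. Tcp1 holds 2 and Hspa8 3 snoRNA genes, and Tcp1 and Cct3 each have 1 pseudogene named after them, so reads that match these are uncertain.

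Promoter windows of 300 bases, 250 before and 50 after the start site, were read from RefSeq (GRCm38.p6) for the genes with an entry, because members that moved together and the member that did not could share or lack short motifs. Entries were found for 6 of the 10 members, with 2 each for Cct2 and Cct5. Cct4, Hspa8, Hsp90aa1 and Hsp90ab1 were not matched. The sequences below run 5′ to 3′ on the strand of the gene. They are Cct3, which fell the most of the subunits and held none of the motifs searched, Cct8, which also fell, and the Cct5 and Cct2 entries that held a motif. Capitals mark a motif.
Cct3 promoter, chr3:88296885-88297184, plus strand: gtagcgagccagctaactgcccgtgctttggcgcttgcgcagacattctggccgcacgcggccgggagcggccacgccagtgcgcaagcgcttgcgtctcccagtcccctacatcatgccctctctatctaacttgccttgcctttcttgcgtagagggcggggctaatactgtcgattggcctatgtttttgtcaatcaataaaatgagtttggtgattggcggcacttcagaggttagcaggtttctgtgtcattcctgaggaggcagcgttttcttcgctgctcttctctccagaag
Cct8 promoter, chr16:87495820-87496119, minus strand: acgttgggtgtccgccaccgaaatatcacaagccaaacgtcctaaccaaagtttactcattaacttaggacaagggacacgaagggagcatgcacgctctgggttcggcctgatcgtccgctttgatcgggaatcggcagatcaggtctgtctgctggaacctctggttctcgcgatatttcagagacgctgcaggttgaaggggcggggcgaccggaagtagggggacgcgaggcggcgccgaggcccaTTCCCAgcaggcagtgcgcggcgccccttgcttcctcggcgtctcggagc
Cct5 promoter, chr15:31601797-31602096, minus strand: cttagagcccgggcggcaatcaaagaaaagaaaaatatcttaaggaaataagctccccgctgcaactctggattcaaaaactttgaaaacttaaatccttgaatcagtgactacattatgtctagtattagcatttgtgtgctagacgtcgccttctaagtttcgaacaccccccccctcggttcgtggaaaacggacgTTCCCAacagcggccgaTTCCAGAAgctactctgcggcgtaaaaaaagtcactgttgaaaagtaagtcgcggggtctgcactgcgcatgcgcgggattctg
Cct2 promoter, chr10:117063326-117063625, minus strand: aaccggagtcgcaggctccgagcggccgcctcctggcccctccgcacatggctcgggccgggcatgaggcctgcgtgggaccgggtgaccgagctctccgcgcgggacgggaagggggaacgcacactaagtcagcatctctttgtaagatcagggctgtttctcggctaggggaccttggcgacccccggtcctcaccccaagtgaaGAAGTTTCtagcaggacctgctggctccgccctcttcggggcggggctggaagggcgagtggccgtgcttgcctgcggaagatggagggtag

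The motifs were searched on both strands. GAANNTTC and TTCNNGAA are both arrangements of the core heat shock element, the site of heat shock factors, and each is its own reverse complement. They can overlap each other in a longer element. CACGTG is the E-box and TGGGAA the core bound by Ikaros. GAANNTTC occurred in 7.86% of all 32851 promoter windows and among the members only in the Cct2 entry shown, from base 209 of the window. TTCNNGAA was in 8.52% of all windows and in the Cct5 entry shown, from base 217. TGGGAA was in 25.6% of all windows and appears as its reverse complement in Cct8, from base 251, and in Cct5, from base 200. CACGTG was in 7.15% of all windows and in no entry of a member. The other Cct2 and Cct5 entries and those of Cct7 and Tcp1 held none of the motifs. The Cct2 window with a motif lies inside the gene span given above. The other Cct2 entry, chr10:117063803-117064102, is the one that covers the 5′ end of that span. These are letter matches, and no binding was measured.

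The question of the time course is what follows the arrival of Ikaros in the nucleus, with the control line as the background for drug and culture. Called here means an adjusted p under 0.05 by limma, adjusted over all 12762 genes. At 0 h 0 of the 10 members were called between the lines (2 at an unadjusted p under 0.05), where 8.33% of all genes were called. At 2 h 1 member was called (19.1% of all genes), and 1 at 6 h (37.3%), or 2 with a replicate block by culture batch, which added Cct4 (adjusted p = 0.0434). The counts were 7 at 12 h (45.8%), 8 at 18 h (58.2%) and 7 at 24 h (62.9%). Downward calls alone were 7 of 10 members at each of 12, 18 and 24 h, where 22.8%, 29.2% and 31.9% of all genes were called lower. The median log2 difference of the members was -0.56, -0.73 and -0.73 at these times, beside -0.01, -0.02 and -0.01 over all genes. Within culture batches the control and Ikaros libraries at 24 h differed the same way in 3 of 3 batches for each of the 7 genes, from -0.12 for Cct5 in batch 4 to -1.51 for Cct3 in batch 4.

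**Figure D1:**
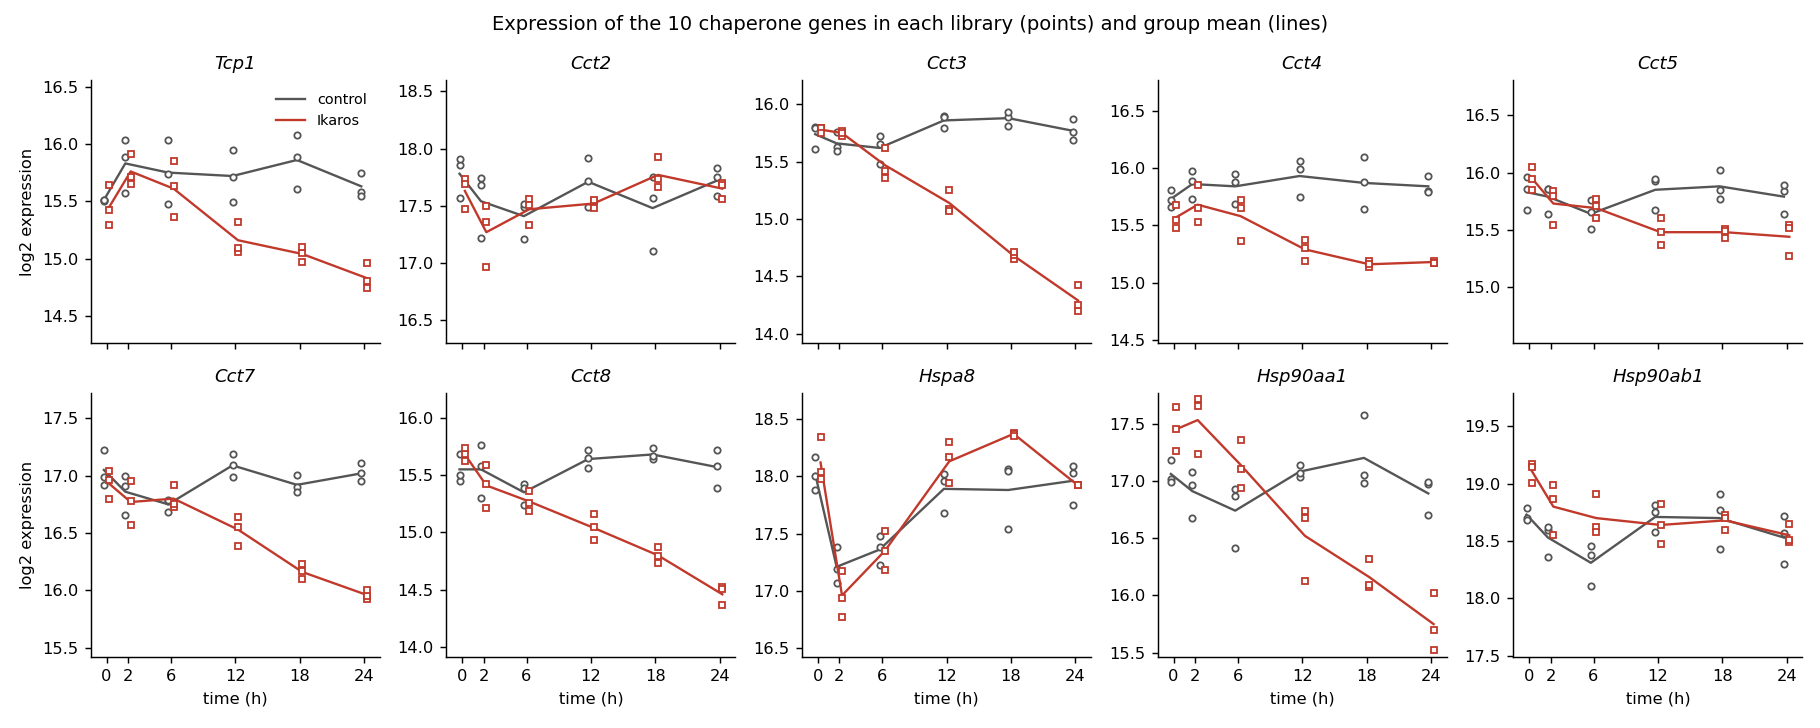
Expression of each member (log2, vertical axis, the same span in every panel) against time in h; points are the libraries of the control (circles) and Ikaros (squares) lines and lines join the means of 3. From 12 h on the means of the Ikaros line lie below those of the control line for Tcp1, Cct3, Cct4, Cct5, Cct7, Cct8 and Hsp90aa1, and for Hsp90aa1 they lie above them at 0, 2 and 6 h; the Hspa8 panel shows the dip at 2 and 6 h in both.

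Cct3, the gamma subunit, fell the most of the TRiC genes. At 24 h its log2 expression was 15.69, 15.87 and 15.76 in the control libraries and 14.20, 14.42 and 14.25 in the Ikaros libraries. The groups were far apart, with a difference of -1.48 ± 0.0827 (SE; limma adjusted p = 2.04e-14), which leaves 0.358 times the control level. The decline was stepwise, with differences of -0.14 at 6 h (adjusted p = 0.174), then -0.72 by 12 h and -1.19 by 18 h. Within the Ikaros line Cct3 was already below its own 0 h level at 6 h, by -0.31 ± 0.0827 (adjusted p = 0.00565), a call that was lost without replicate 1 (0.0658) and without replicate 2 (0.202).

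Cct8, the theta subunit, and Cct7, the eta subunit, took a like course. Cct8 at 24 h measured 15.58, 15.72 and 15.39 in control and 14.37, 14.52 and 14.51 in Ikaros cells, a difference of -1.10 ± 0.107 (adjusted p = 1.08e-09). Cct7 measured 16.95, 17.02 and 17.11 in control and 15.92, 15.95 and 16.00 in Ikaros cells, a difference of -1.07 ± 0.102 (adjusted p = 7.86e-10). For both genes no Ikaros library reached the lowest control library at 12, 18 or 24 h. At 6 h neither was called, with differences of -0.08 and 0.05.

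Tcp1, the alpha subunit, and Cct4, the delta subunit, were near their 24 h differences by 18 h. Tcp1 measured 15.58, 15.75 and 15.55 in control and 14.74, 14.96 and 14.80 in Ikaros cells at 24 h, and its differences over the last 3 times were -0.56, -0.82 and -0.79 ± 0.149 (adjusted p = 4.75e-05 for the last). Cct4 measured 15.80, 15.79 and 15.93 in control and 15.19, 15.17 and 15.17 in Ikaros cells, with differences of -0.65, -0.71 and -0.67 ± 0.113 (adjusted p = 1.15e-05). The 3 Ikaros libraries of each gene lay below all 3 control libraries at all of these times. At 6 h Cct4 was already lower in each batch, by -0.33, -0.23 and -0.23, without passing the test (-0.26 ± 0.113, adjusted p = 0.0690). The Tcp1 call at 12 h was lost without replicate 2 (adjusted p = 0.0934).

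Cct5, the epsilon subunit, showed the smallest called fall. It measured 15.84, 15.89 and 15.64 in control and 15.54, 15.27 and 15.52 in Ikaros cells at 24 h. The lowest control library, at 15.64, lay just above the highest Ikaros library, at 15.54, and the difference was -0.35 ± 0.109 (adjusted p = 0.00763). At 24 h the call was lost without replicate 1 (0.0599), without replicate 2 (0.263) and with library preparation as a covariate (0.0610).

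Cct2, the beta subunit, was not called between the lines at any time by the model without a batch term. Its values at 24 h were 17.75, 17.83 and 17.59 in control and 17.70, 17.56 and 17.68 in Ikaros cells, which overlap, and the difference was -0.08 ± 0.158 (adjusted p = 0.686). At 18 h the sign was the other way, at 0.30 ± 0.158 (adjusted p = 0.110, or 0.0453 and called higher with the replicate block and the 0 h batches apart), where 1 control library, of batch 4, stood at 17.11 and the others at 17.75 and 17.57. Batch 4 also had the lowest Cct2 of the control libraries at every time from 2 to 24 h, and the highest Tcp1 and Cct4 of them from 2 to 18 h. The part of this batch in the differences was not tested beyond leaving it out, after which Cct2 was called lower at 12 h (adjusted p = 0.0391).

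**Figure D2:**
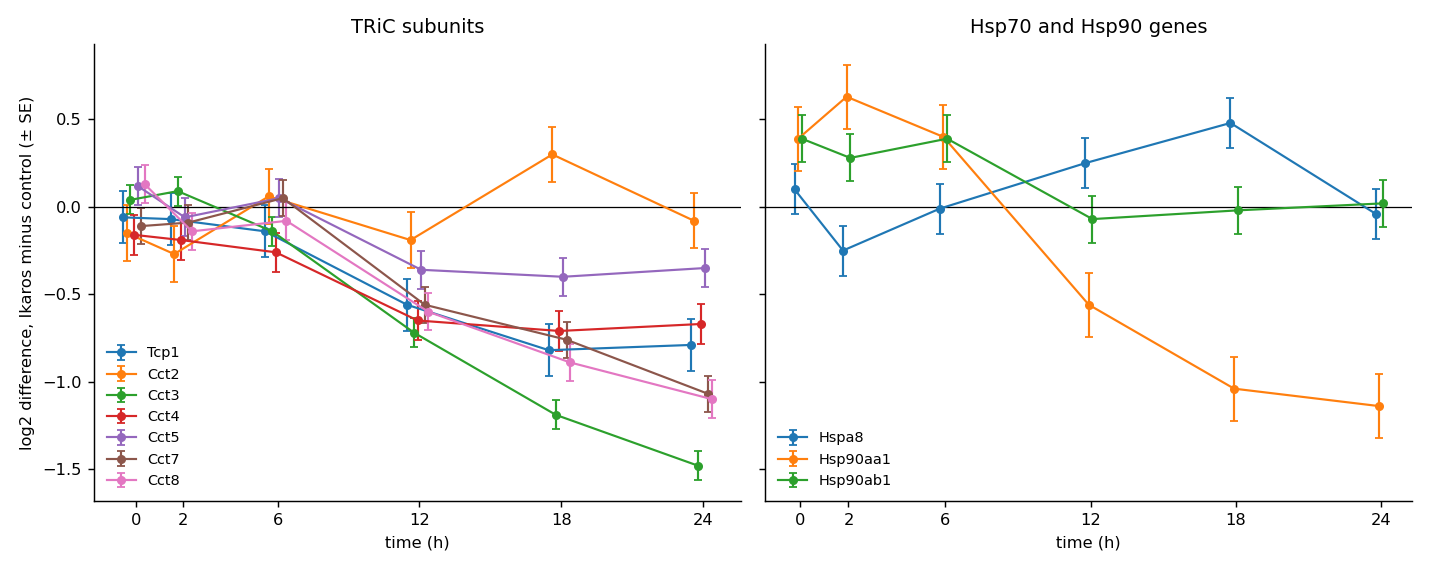
Log2 difference between the lines (Ikaros minus control, vertical axis) against time in h for the 7 TRiC subunits (left) and the 3 heat shock protein genes (right); points are limma estimates from 3 libraries a group and bars are 1 SE. At 24 h the subunits spread from -1.48 for Cct3 to -0.08 for Cct2, and Hsp90aa1 stood at -1.14 while Hsp90ab1 stood at 0.02.

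To place Cct2 against its partners, its log2 ratio to the mean of the other 6 subunits was taken within each library. These ratios were chosen after the values were seen and carry no test, and only their change between groups can be read. Over 12, 18 and 24 h the ratio was 1.65 ± 0.28 (SD, n = 9) in control and 2.42 ± 0.27 in Ikaros libraries, with ranges of 1.04 to 1.96 and 2.00 to 2.72 that do not overlap. The same ratio for Cct3 was -0.45 ± 0.07 in control and -1.02 ± 0.27 in Ikaros libraries. For Cct4 it was -0.40 ± 0.18 and -0.43 ± 0.13. The ratio of Cct5 was also higher in Ikaros libraries, at -0.45 ± 0.11 in control and -0.12 ± 0.18 in Ikaros libraries, with ranges that overlap. For Tcp1, Cct7 and Cct8 the Ikaros minus control differences of the mean ratio were -0.09, -0.17 and -0.25. The mean of the 7 subunits in the Ikaros line was 16.14 at the start and 15.98, 15.74, 15.59 and 15.40 over the last 4 times, while it stayed between 16.05 and 16.26 in the control line.

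Cct6a, the zeta subunit, is no member but belongs to the same ring. Its values at 24 h were 16.75, 16.84 and 16.46 in control and 15.44, 15.51 and 15.51 in Ikaros cells. The Ikaros libraries were all lower, by -1.19 ± 0.161 (adjusted p = 3.46e-07), near the differences of Cct7 and Cct8. Its locus overlaps Psph on the opposite strand and holds 2 snoRNA genes. Across all 36 libraries its correlation with Cct8 was r = 0.944, and within the Ikaros line Cct3 and Cct8 correlated with r = 0.954 over 18 libraries. Cct2 and Tcp1 correlated with r = -0.697 in the Ikaros line and r = -0.736 in the control line. The points of these correlations share the time course and the culture batches.

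Hsp90aa1, the inducible alpha form of Hsp90, was higher in the Ikaros line at 2 h and lower from 12 h on. It began at 17.02, 16.99 and 17.18 in control and 17.26, 17.64 and 17.45 in Ikaros cells, which do not overlap although the difference of 0.39 ± 0.183 was not called (adjusted p = 0.244). Between 0 and 2 h the Ikaros line itself changed by 0.08 ± 0.183 (adjusted p = 0.786). At 2 h it measured 16.96, 16.68 and 17.08 in control and 17.65, 17.23 and 17.71 in Ikaros cells. The Ikaros libraries were all higher, by 0.63 ± 0.183 (adjusted p = 0.0166), a call lost without replicate 1 (0.168), replicate 2 (0.0824) or replicate 3 (0.0559) and with library preparation as a covariate (0.0785). At 24 h it measured 16.97, 16.99 and 16.70 in control and 15.52, 16.02 and 15.70 in Ikaros cells, a difference of -1.14 ± 0.183 (adjusted p = 5.39e-06). The Ikaros libraries lay below all control libraries at 12, 18 and 24 h, and the call at 12 h (-0.56, adjusted p = 0.0135) was lost without replicate 3 (0.222). Against its own 2 h level the Ikaros line fell by 1.78 ± 0.183 log2 units at 24 h (adjusted p = 4.10e-09).

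Hsp90ab1, the constitutive beta form, was higher in the Ikaros line early and not called later. At 0 h it measured 18.70, 18.68 and 18.79 in control and 19.01, 19.17 and 19.15 in Ikaros cells, a difference of 0.39 ± 0.134 (adjusted p = 0.0792, or 0.0392 with a replicate block by culture batch). At 6 h the difference was 0.39 ± 0.134 and was called (adjusted p = 0.0243), though not without replicate 1 (0.528) or replicate 2 (0.0727). By 24 h the libraries overlapped, at 18.57, 18.72 and 18.30 in control and 18.49, 18.51 and 18.65 in Ikaros cells, with a difference of 0.02 ± 0.134 (adjusted p = 0.899). Against its own 0 h the Ikaros line was nonetheless lower at 24 h, by -0.56 ± 0.134 (adjusted p = 7.83e-04), from its higher start.

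The log2 ratio of Hsp90aa1 to Hsp90ab1 within a library summarises the parting of both forms. In the control line it was between -1.78 and -1.35 over 12, 18 and 24 h (mean -1.59 ± 0.15 SD, n = 9). In the Ikaros line it was between -2.97 and -1.89 (mean -2.48 ± 0.35), so no library overlapped. The difference of the means was -0.89. This ratio was chosen after the values were seen and carries no test. At 0 h its group means were -1.66 in both lines.

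**Figure D3:**
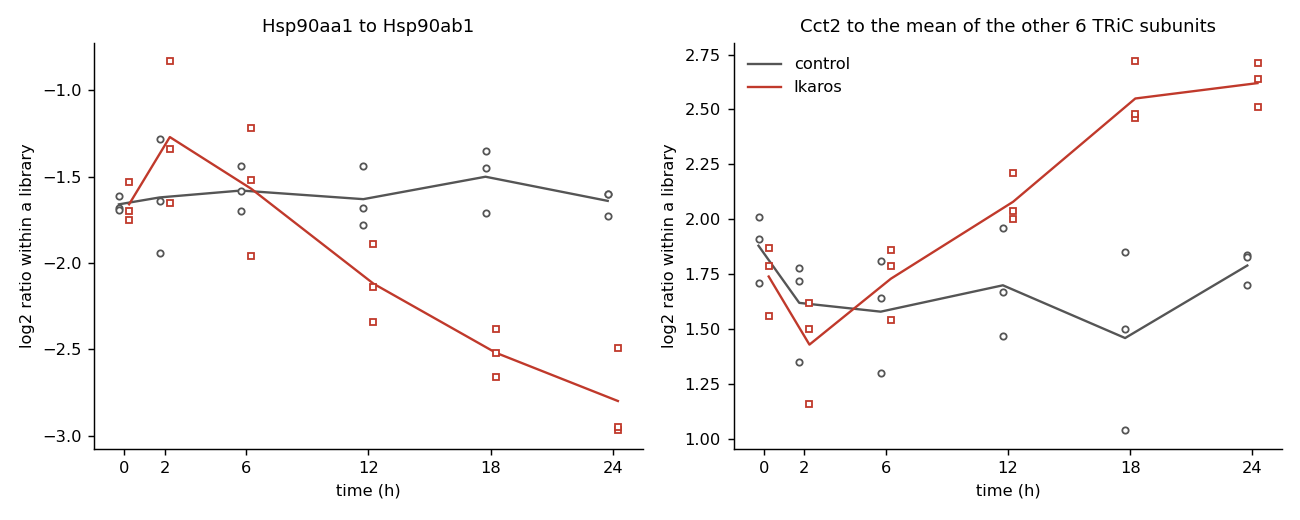
Log2 ratio within each library (vertical axis) against time in h, of Hsp90aa1 to Hsp90ab1 (left) and of Cct2 to the mean of the other 6 TRiC subunits (right); points are libraries, circles for control and squares for Ikaros, and lines join group means. From 12 h on the Ikaros libraries lie below the control libraries on the left and above them on the right.

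Hspa8 dipped early in both lines. In control cells it measured 17.88, 18.00 and 18.17 at 0 h and 17.19, 17.38 and 17.07 at 2 h. In Ikaros cells it measured 17.98, 18.04 and 18.34 at 0 h and 17.17, 16.94 and 16.77 at 2 h. Every 2 h library lay below every 0 h library of its line. The change was -0.80 ± 0.143 in control (limma adjusted p = 0.0211) and -1.16 ± 0.143 in Ikaros cells (adjusted p = 1.82e-06), and the change of the difference between the lines was not called (-0.35 ± 0.203, adjusted p = 0.511).

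Among the members Hspa8 was the 1 called in control cells at 2 h, where 6 of 12762 genes (0.0470%) were called. At 6 h it was again the 1 member called there, at -0.65 (adjusted p = 0.0174, 5.10% of all genes called). This call was lost without replicate 1 (0.205), replicate 2 (0.166) or replicate 3 (0.0510), with library preparation as a covariate (0.184) and with only the compared groups fitted (0.108). A replicate block by culture batch brought this to 4 members in control cells at 6 h, with Cct2, Cct7 and Hsp90ab1 added. At 12, 18 and 24 h 0 members were called by limma against 0 h in control cells (0, 1 and 0 at an unadjusted p under 0.05), beside 0.0549%, 0.478% and 0.470% of all genes. The 2 h call in control cells was lost without replicate 1 (0.817), replicate 2 (0.752) or replicate 3 (0.0627), with library preparation as a covariate (0.358) and with only the compared groups fitted (0.633).

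The 0 h cultures were grown apart, so the return of Hspa8 was also read against 2 h. In control cells it stood 0.68 ± 0.143 above 2 h at 12 h (adjusted p = 0.0606, or 0.0253 with the replicate block, 0.0705% of all genes called) and 0.74 ± 0.143 above it at 24 h (adjusted p = 0.0161, 0.454% called). That call was lost without replicate 1 (0.379) or replicate 2 (0.391). In Ikaros cells the rise from 2 h was 1.17 ± 0.143 at 12 h (adjusted p = 4.80e-07) and 0.96 ± 0.143 at 24 h (adjusted p = 2.21e-06). Of the 10 members 6 were called at 12 h and 9 at 24 h against 2 h in the Ikaros line, in either direction, beside 38.4% and 60.6% of all genes. At 12 h Hspa8 was the member that rose. The others called had fallen, namely Tcp1 (-0.60), Cct3 (-0.61), Cct4 (-0.39), Cct8 (-0.36) and Hsp90aa1 (-1.01).

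Later the lines differed in Hspa8 at 18 h. The control libraries measured 18.06, 18.05 and 17.54 and the Ikaros libraries 18.38, 18.37 and 18.35, which puts every Ikaros library above every control library by 0.48 ± 0.143 on average (adjusted p = 0.00524). At 24 h the difference had closed to -0.04 ± 0.143 (adjusted p = 0.836), with all 3 Ikaros libraries at 17.92.

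The 5 genes called along with Hspa8 in control cells at 2 h against 0 h were Cirbp, Adck3, Hvcn1 and Lmcd1, which rose, and Amigo1, which fell. Cirbp encodes an RNA-binding protein induced by mild cold, and it was followed together with Rbm3, another such gene, because of this, after the values were seen. Cirbp rose by 0.51 ± 0.0878 in control (adjusted p = 0.0193) and 0.40 ± 0.0878 in Ikaros cells (adjusted p = 0.00197) at 2 h. Its control libraries went from 12.58, 12.38 and 12.56 at 0 h to 13.10, 12.89 and 13.04 at 2 h, without overlap, and returned to 12.53, 12.54 and 12.63 at 12 h. Rbm3 was 0.73 ± 0.169 higher at 2 h in control cells (adjusted p = 0.178) and rose by 0.81 ± 0.169 in Ikaros cells (adjusted p = 0.00128). At 2 h both genes were higher than at 0 h in each line, while Hspa8 was lower, and what links them was not tested. This opposition did not hold over the whole course. Cirbp and Hspa8 both had their highest group means of the Ikaros line at 18 h, 13.28 and 18.37. In the Ikaros line Cirbp was also above its 0 h level at 12 h, by 0.42 ± 0.0878 (adjusted p = 2.84e-04), where Hspa8 stood 0.02 ± 0.143 from its own, and at 18 and 24 h, when Hspa8 was not called against 0 h either.

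**Figure D4:**
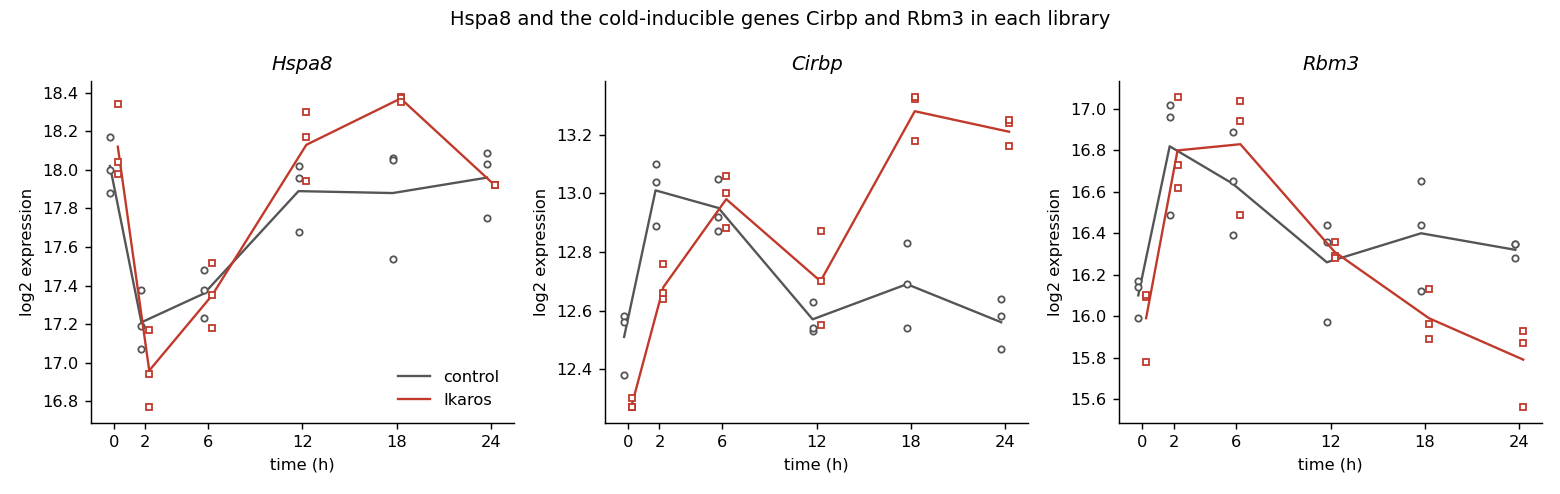
Log2 expression (vertical axis) of Hspa8, Cirbp and Rbm3 against time in h; points are libraries, circles for control and squares for Ikaros, and lines join group means. At 2 h Hspa8 is at its lowest in both lines, 17.21 and 16.96 on average, and Cirbp in control cells is at its highest, 13.01. In Ikaros cells Cirbp and Hspa8 are both at their highest at 18 h, 13.28 and 18.37.

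Within the Ikaros line the members were also compared with their own 0 h. Over 2, 6, 12, 18 and 24 h the number called was 1, 4, 7, 8 and 8 of 10, all lower, beside 19.2%, 32.8%, 46.1%, 54.6% and 60.6% of all genes called in either direction. The replicate block made this 5 at 2 h. Hsp90aa1 fell by 1.70 ± 0.183 log2 units to 24 h (adjusted p = 7.85e-09), Cct3 by 1.48 ± 0.0827 and Cct8 by 1.22 ± 0.107. Cct2 measured 17.73, 17.47 and 17.69 at 0 h and was not called (0.02 ± 0.158, adjusted p = 0.942).

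Because the lines can differ before the drug, the change of the difference between them from 0 h was tested as an interaction. By limma 0 members were called at 2 h and 0 at 6 h (0 and 0 at an unadjusted p under 0.05), beside 3.10% and 15.9% of all genes. The counts were then 6 by 12 h (29.7%), 7 by 18 h (43.0%) and 7 by 24 h (48.4%). Under the replicate block Tcp1 and Hsp90ab1 joined at 12 h. At 24 h the largest were Hsp90aa1 with -1.53 ± 0.259 and Cct3 with -1.52 ± 0.117. The call of Cct5 at 24 h (-0.46 ± 0.155, adjusted p = 0.0148) was lost without replicate 1 (0.133) or replicate 2 (0.397), and those of Tcp1 and Cct4 without replicate 2 (0.132 and 0.161).

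The F test over the 5 changes called 8 members (59.8% of all genes). They were the same 7 and Hspa8, at adjusted p = 0.0413, which was lost without replicate 1 (0.128) or replicate 2 (0.434). Measured from 2 h instead of 0 h, so with 4-OHT on both sides, the change of the difference to 24 h was called for 6 members (47.3% of all genes). Cct5 was not called there (-0.29 ± 0.155, adjusted p = 0.127).

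The wider chaperone network at 24 h was read from lists of genes with known roles, by counts and medians. Lower and higher here compare the Ikaros with the control line at 24 h and say nothing of the change within a line. Over all genes the median was -0.01, with 62.9% called and 31.9% called lower, and a list share near these says nothing particular about the list. The 10 TRiC partners in the table, which are the other ring subunits, the prefoldin subunits that deliver clients and phosducin-like regulators, had 2 called lower and 3 higher (median 0.04), so 20.0% were lower. Pfdn5 was higher by 1.17 ± 0.237 and Pdcl by 0.83 ± 0.266, whereas Pfdn2 stood at -0.81 ± 0.210 and Cct6a as given above. The prefoldin subunit Pfdn4 (-0.65, adjusted p = 0.0670) was not called.

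Of 22 Hsp70 genes and helpers 9 were called lower and 3 higher (median -0.24), so 40.9% were lower and 54.5% were called in all, below the 62.9% of all genes. Hspbp1, a nucleotide exchange factor, stood at -1.35 ± 0.186, and Bag2, a co-chaperone of the same step, at -1.27 ± 0.0935. Hspa2 was higher by 1.39 ± 0.263. Of the 15 Hsp90 co-chaperones 8 were called lower and 4 higher (median -0.79), so 53.3% were lower. Fkbp5, an immunophilin of steroid receptor complexes, stood at -2.05 ± 0.109, and Ptges3, the p23 co-chaperone, at -1.78 ± 0.108. Ahsa2 was higher by 0.54 ± 0.140 and Cdc37l1 by 0.68 ± 0.172, although Cdc37l1 fell by 0.47 ± 0.172 from its own 0 h in Ikaros cells (adjusted p = 0.0208) and stood at -0.70 ± 0.172 against 0 h in control cells (adjusted p = 0.0608).

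Chaperones of the mitochondria and the endoplasmic reticulum were mostly called lower as well, where 31.9% of all genes were. All 6 mitochondrial chaperone genes were called lower (median -1.42), with Hspd1, the Hsp60 of the matrix, at -1.95 ± 0.182 and Hspa9, its Hsp70, at -1.80 ± 0.132. Of 12 endoplasmic reticulum chaperones 9 were called lower, 3 were not called and 0 were higher (median -1.01), led by Hyou1 at -1.67 ± 0.119 and Sdf2l1 at -1.41 ± 0.172. The TRiC subunits, for comparison, had a median of -0.79.

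Genes that a heat shock switches on did not share one direction between the lines at 24 h. Of 5 in the table Hspa1b and Dnajb1 were called higher, Hsph1 lower, and Dnajb4 (0.12) and Chordc1 (-0.11) were not called (median 0.12). From 0 to 2 h within the Ikaros line each of these 5 fell and was called, beside 19.2% of all genes called in either direction. The changes were -1.35 for Hspa1b, -0.92 for Hsph1, -0.64 for Chordc1, -0.60 for Dnajb1 and -0.44 for Dnajb4. In control cells they were -0.17, -0.84, -0.40, -0.56 and -0.02, in that order, and were not called. Their unadjusted limma p-values there were 0.513, 5.91e-05, 0.00302, 0.00278 and 0.920. Only 0.0470% of all genes were called in control cells at 2 h, so the calls alone do not set the lines apart. A link with the Hspa8 dip was not tested. At 24 h Hspa1b, an inducible Hsp70, measured 7.58, 7.60 and 7.50 in control and 9.74, 9.50 and 9.57 in Ikaros cells, all higher, by 2.04 ± 0.256 (adjusted p = 1.03e-07). It was already 1.90 ± 0.256 higher at 6 h, when the subunits were not called, after differences of 0.75 at 0 h (adjusted p = 0.0720) and -0.44 at 2 h (adjusted p = 0.268). From 0 to 6 h neither line was called on its own, with changes of 0.57 in Ikaros (adjusted p = 0.0896) and -0.58 in control cells (adjusted p = 0.139). Its near-identical neighbour Hspa1a was not analysed here, so reads shared by both copies make the value uncertain. Dnajb1, a J-domain partner of Hspa8, was higher by 0.48 ± 0.170, and Hsph1, a nucleotide exchange factor of the Hsp110 type, stood at -0.97 ± 0.176. Hsf1, the master heat shock factor, was lower at 24 h, by -0.99 ± 0.104 (adjusted p = 5.10e-09). Its differences over the 5 times before were -0.21, -0.12, -0.33, -0.16 and -0.48, in order of time, of which those at 6 h (adjusted p = 0.0151) and 18 h (3.17e-04) were called and that at 12 h was not (0.208). Hsf2 was higher by 0.34 ± 0.111 and Hsbp1, a binding partner of Hsf1, by 0.46 ± 0.0878.

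The 19 genes of known TRiC substrates had 8 called lower and 3 higher (median -0.04), so 42.1% were lower and 57.9% called in all. Tuba1a was higher by 2.92 ± 0.177 and Tubb2a by 2.79 ± 0.312, while Tubb6, at a low level, stood at -3.79 ± 0.455 and Ccne1, a cyclin, at -1.73 ± 0.147. Actb, beta-actin, was not called (-0.03 ± 0.145, adjusted p = 0.868). Some tubulin genes are near-identical in sequence, which makes the split of reads among those uncertain.

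**Figure D5:**
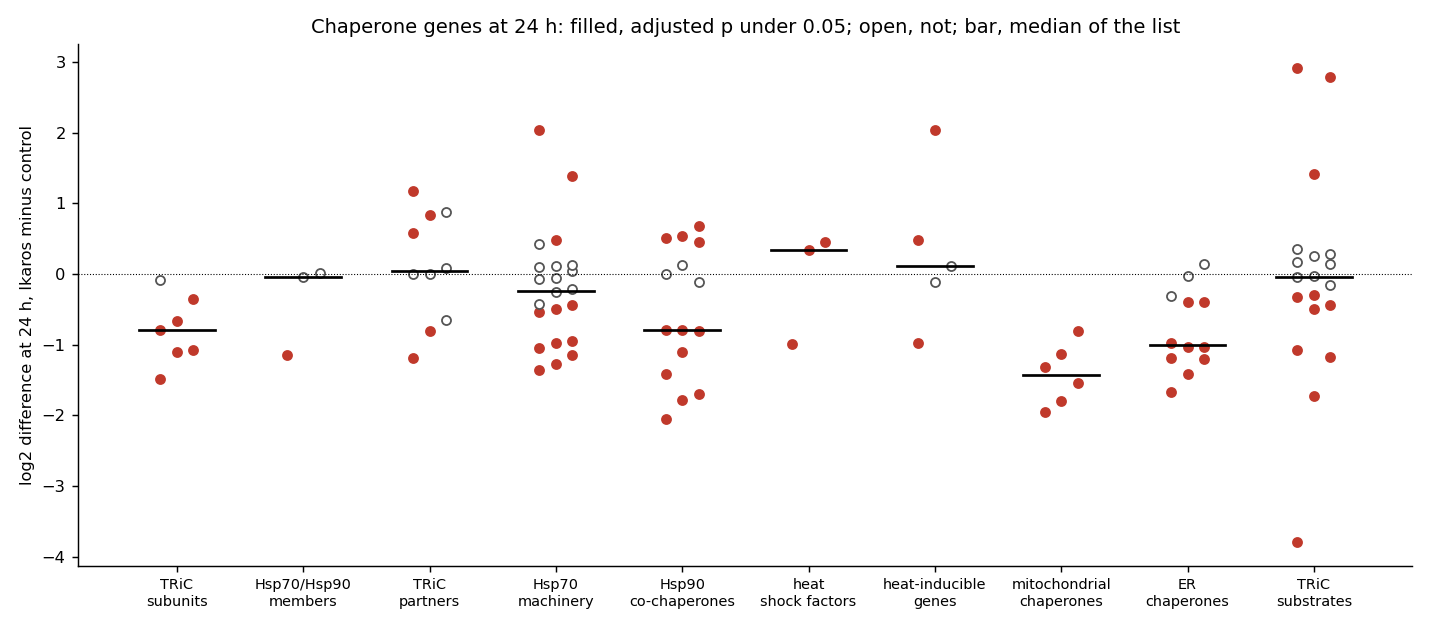
Log2 difference at 24 h (Ikaros minus control, vertical axis) for every gene of each list (horizontal axis); filled points had an adjusted p under 0.05, open points did not, and bars are list medians. All 6 mitochondrial chaperones lie below 0, at a median of -1.42, while the TRiC substrates spread from -3.79 to 2.92 around -0.04.

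By correlation with the mean of the 7 subunits over the 36 libraries, the 5 most similar genes outside the members were Nsun2 (r = 0.981), a tRNA and RNA cytosine methyltransferase, Hspa4 (r = 0.974), an Hsp110-type exchange factor, Rcc1 (r = 0.972), the exchange factor of Ran, Wdr5 (r = 0.972), a WD40-repeat scaffold, and Ttc27 (r = 0.972). Their log2 differences between the lines at 24 h were -2.17, -1.15, -2.05, -1.40 and -2.21, in that order. All were called by limma, where 62.9% of all genes were called and 31.9% called lower. They were picked for following a mean that fell in the Ikaros line, so these differences are no separate result. This likeness is a ranking over libraries that share one time course.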

How the data were processed

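Strand-marked mRNA libraries were sequenced from B3 control and Ikaros cells at 6 times, with n = 3 per group. The authors trimmed the reads, mapped them to mm10 with TopHat2 (unique best hits), assigned fragments to genes with HTSeq, normalized with cqn for GC content and length and adjusted for library preparation with ComBat. The deposited values are log2 values shifted so that the lowest is 1. The base is not stated in the table, and folds rest on base 2. Adjustment before deposition can make standard errors too small. No counts were used, so the depth of each library was not assessed.

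One limma 3.58.1 model (R 4.3.3) with 12 group means was fitted to all 12762 genes, and two-sided p-values were adjusted by Benjamini-Hochberg over all of them. On values simulated from this table the fit was tested with 200 changed genes. Alternatives were a replicate block by culture batch (also with 0 h apart), a filter at the 25th percentile of mean level (9571 genes kept), quantile normalization, eBayes with trend and robust settings, library preparation as covariate, only the compared groups, and leaving out each replicate. Contrasts against 2 h and ratios within libraries were added after the data were seen. Control and Ikaros cultures grown as one batch carry the same batch number in the labels, which pairs them. Deviations of paired libraries correlated with r from -0.0620 to 0.507 over 18 pairs.

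The members and gene lists were chosen with earlier results of these data known. Named genes were all members, Cct6a, Hspa1b, Hsf1 and Hsf2, and per list up to 2 called rises and 2 called falls at 24 h with the largest changes and no overlap between groups. Symbols are those of the table. Positions are from GENCODE M21 (GRCm38, the same build as mm10), and promoters from RefSeq (GRCm38.p6). Figures used matplotlib 3.10.9.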

Additional observations from a re-analysis of the deposited data

Results flagged for a closer look

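For 7 members the difference between the lines changed from 0 h to 24 h by limma's interaction term. The change was -0.73 for Tcp1, -1.52 for Cct3, -0.50 for Cct4, -0.46 for Cct5, -0.96 for Cct7, -1.23 for Cct8 and -1.53 for Hsp90aa1. Hspa8 passed the F test over the 5 changes, at an adjusted p of 0.0413, without passing at 24 h. Groups held 3 libraries each, too few for a search for single distant libraries.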

How the results depend on the processing

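Of 2600 values of single members under the alternatives, 2445 kept their direction and their side of the threshold or were not called either way, 107 lost a call, 48 gained one and 0 changed sign with a call. Counts of called genes stayed within 1.5 times in 231 of 281 cases, among them every count of members between the lines at 12, 18 and 24 h, and a count that moved is given here with its cause not tested. With the culture batch as replicate block, the number of members called rose to 4 for control cells at 6 h against 0 h, 5 for Ikaros cells at 2 h against 0 h, 1 between the lines at 0 h, 2 at 6 h and, in control cells at 12 h against 2 h, 1. With the 0 h batches apart in that block the same counts were 4, 4, 1, 2 and 1. Quantile normalization gave 2 for control cells at 6 h, and it, the filter and the eBayes settings each gave 1 for control cells at 12 h against 2 h. The filter left 1 heat-inducible gene called at 18 h. With library preparation as covariate or with only the compared groups, 0 members were called for control cells at 2 h, 6 h and 24 h (against 2 h) and between the lines at 2 h and 6 h, and 1 for Ikaros cells at 6 h. Only the compared groups gave 1 between the lines at 0 h. Library preparation as covariate gave 3 and 4 for the change of the difference at 12 and 18 h. Leaving out 1 replicate gave 0 to 0 for control cells at 2 h and 6 h and between the lines at 2 h, 0 to 1 for control cells at 24 h against 2 h and between the lines at 6 h, 4 to 9 for the F test, 5 to 9 for Ikaros cells at 18 h, 1 to 3 at 6 h and 3 to 5 at 12 h against 2 h. For the change of the difference it gave 1 to 4 at 12 h, 4 to 8 at 18 h and 4 to 8 at 24 h. The lowest counts for the F test, the Ikaros line and the change of the difference came without replicate 2.

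The replicate block changed no member's call between the lines at 12, 18 or 24 h, except that with the 0 h batches apart Hspa8 was called at 12 h and Cct2 at 18 h (adjusted p = 0.0453 for each). With it, Hsp90ab1 passed the F test (adjusted p = 0.0424). Depth could not be assessed, so how counting error limits the lower-level genes such as Hspa1b and Tubb6 was not measured.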
